A study of Rattus norvegicus with 24 samples.

Results

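The genes described here code for proteins that fill, dock, fuse and retrieve synaptic vesicles. They were taken as a list of 45 genes by name, and 44 of them had a probe set that the platform annotation assigns to a single gene. Each gene was read from its probe set with the highest mean signal, and 40 of the 45 exceeded a log2 signal of 4 on at least 6 arrays. These 40 stand among the 9076 genes of the series that met the same requirement. Erc2, which codes for an active zone scaffold, had no probe set with a single gene symbol. The other 4 genes, Syt2, Rab3c, Sv2c and Unc13c, exceeded the minimum on 0 of 23 arrays, and their highest values were 2.00, 3.04, 2.00 and 1.95 log2 units.

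Neurotransmitter is stored in vesicles that dock at the active zone, a protein scaffold on the inner face of the terminal. Calcium entering through channels near the docked vesicle binds synaptotagmin, and the SNARE proteins of vesicle and plasma membrane, regulated by complexins, drive the membranes together. The emptied membrane is then retrieved by endocytosis, in which dynamin pinches off the new vesicle. CA1 is the field of the hippocampus whose pyramidal neurons receive input from CA3 and pass it on to the subiculum and cortex. Transcripts in dissected CA1 come largely from cell bodies that lie there, whereas many of the terminals in CA1 belong to neurons whose cell bodies lie elsewhere.

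RNA came from microdissected CA1 of male Long-Evans rats that had received no treatment, with 1 array per biological replicate. The groups were 9 young rats of 6 months, 6 aged rats of 24 to 26 months that learned the Morris water maze within the range of the young (aged unimpaired), and 8 aged rats of the same ages that did worse (aged impaired). In the maze a rat has to remember where an escape platform lies under the water, and the cognitive groups rest on a learning index from it. The data ask whether release genes differ in CA1 with age and with the loss of spatial learning among aged rats. Values are deposited log2 signals, on which a difference of 0.25 is a 1.19-fold change. The number of arrays limits the precision, and p-values set each difference against the spread between arrays within the groups. In such bulk RNA, fewer cells of a type and less RNA per cell cannot be told apart.

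Array medians lay between 4.2 and 4.28, and median correlations with the other arrays between 0.990 and 0.994. The mean over the 40 genes was 9.94 ± 0.05 (SD, n = 9) on young arrays, 9.92 ± 0.04 (n = 6) on aged unimpaired arrays and 9.95 ± 0.07 (n = 8) on aged impaired arrays. Aged impaired replicate 7 had the lowest such mean, 9.80, and the lowest correlation. The CA1 markers Wfs1, Fibcd1, Mpped1, Pou3f1, Gpr161, Man1a1 and Ccn3 (Nov in the older annotation) were all measured.

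The upstream sequences of 32 of the 40 measured genes were matched by symbol in RefSeq's table for the rat build GRCr8. Those of Syn1, Stx1a and Syt3 are printed, because these genes gave the smallest unadjusted p in at least 1 comparison each. They are the 250 bases before the annotated start, written 5′ to 3′ along the gene. Capitals mark a cAMP response element (TGACGTCA), an Egr site (GCGGGGGCG on either strand, the reverse in Syn1) and GC boxes (GGGCGG).
Syn1, chrX:3725495-3725744, plus strand: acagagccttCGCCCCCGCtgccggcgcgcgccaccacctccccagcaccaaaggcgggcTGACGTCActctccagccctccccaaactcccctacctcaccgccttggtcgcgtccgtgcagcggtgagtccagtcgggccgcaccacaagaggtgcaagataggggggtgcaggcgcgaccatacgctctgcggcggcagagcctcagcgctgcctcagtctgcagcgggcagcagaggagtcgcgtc
Stx1a, chr12:27306472-27306721, minus strand: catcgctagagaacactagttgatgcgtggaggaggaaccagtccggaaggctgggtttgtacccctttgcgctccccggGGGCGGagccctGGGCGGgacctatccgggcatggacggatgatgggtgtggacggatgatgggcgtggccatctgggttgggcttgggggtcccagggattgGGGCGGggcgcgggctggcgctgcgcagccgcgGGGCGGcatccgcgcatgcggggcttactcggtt
Syt3, chr1:104017874-104018123, plus strand: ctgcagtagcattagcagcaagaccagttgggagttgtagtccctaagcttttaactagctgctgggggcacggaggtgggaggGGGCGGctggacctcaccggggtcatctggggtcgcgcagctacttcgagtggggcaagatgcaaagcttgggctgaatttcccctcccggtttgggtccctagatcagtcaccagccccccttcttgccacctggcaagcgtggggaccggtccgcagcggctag
A search of both strands found TGACGTCA in 4 of the 32 sequences (12.5%), those of Napa, Sh3gl2, Syn1 and Vamp1, against 3.16% of 7629 tested genes with such a sequence and 1.70% of all 27457 sequences of this length. GCGGGGGCG stood in 8 (25.0%), those of Nsf, Sh3gl2, Stxbp5, Syn1, Syn2, Syp, Syt1 and Vamp2, against 5.26% and 2.49%. GGGCGG stood in 24 (75%) against 61.5% and 32.4%, and TATAAA in 0 against 5.91% and 13.1%. The median GC content was 64.8% in the 32 sequences, 61.2% among tested genes and 52.0% among all. The motifs were chosen after the sequences had been read, and the shares are a description with no test.

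None of the 40 release genes passed an adjusted p under 0.05 (limma, Benjamini-Hochberg over 9076 genes) in any comparison. The share of all tested genes called was 3.71% between aged and young rats, 3.80% between impaired and young, 0.760% between unimpaired and young and 0% between the aged groups. At an unadjusted p under 0.05, limma counted 2 of the 40 between aged and young rats (Syt3 and Stx1a), 2 between impaired and young (Syt3 and Sv2a), 4 between unimpaired and young (Syn1, Syt3, Stx1a and Erc1) and 1 between the aged groups (Syn1). These are 5%, 5%, 10% and 2.5% of the genes, and the same shares over all tested genes were 15.3%, 16.5%, 9.84% and 6.93%. The comparisons against young share the young arrays. In each comparison, the arrays of the groups overlapped for every one of the 40 genes, and non-overlap was also rare over all tested genes, at 0.176%, 0.496%, 0.771% and 0.165% in the same order.

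The sizes of the differences were small throughout. The median size, regardless of sign, was 0.04, 0.05, 0.06 and 0.05 log2 units in these 4 comparisons, against 0.05, 0.06, 0.06 and 0.06 over all tested genes. The signed medians were 0.00, 0.01, -0.01 and 0.04 log2 units, against 0.01, 0.01, 0.02 and -0.01. The genes above 0 numbered 20, 23, 18 and 27 of 40 (50%, 57.5%, 45% and 67.5%), where 56.1%, 53.6%, 58.3% and 47.4% of all tested genes lay above 0.

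How large a difference these arrays leave possible can be read from the 95% intervals. For 29 of the 40 genes (72.5%) the whole interval for aged minus young lay within 0.25 log2 units of 0, and this held for 72.6% of all tested genes. The count was 25 (62.5%, beside 63.1%) for impaired minus young, 25 (62.5%, beside 62.5%) for unimpaired minus young and 23 (57.5%, beside 62.0%) between the aged groups. Within 0.5 log2 units, a 1.41-fold change, lay 38, 39, 36 and 37 of the 40 intervals (95.4%, 93.4%, 93.4% and 94.1% of all tested genes). The genes outside that wider limit in at least 1 comparison were Unc13b, Pclo, Syt11 and Cplx2, whose arrays also varied most within groups together with Unc13a.

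**Figure D1:**
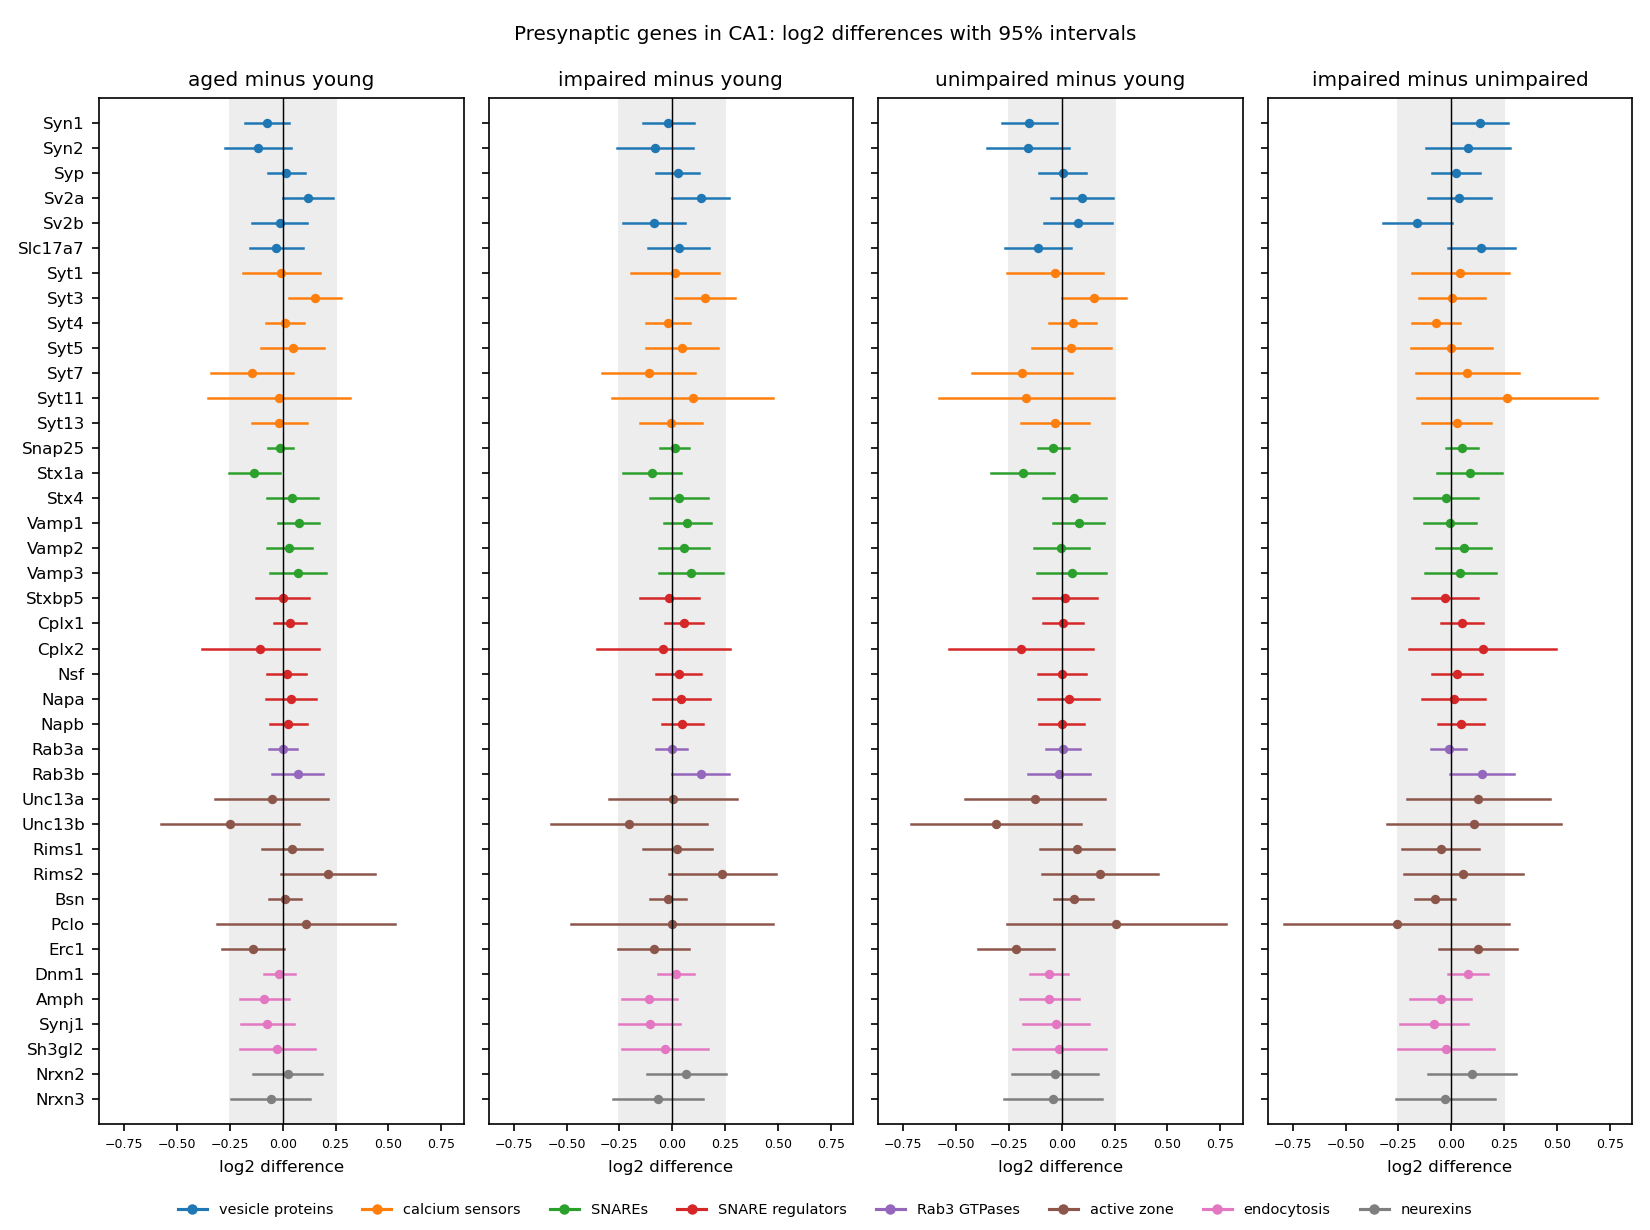
Log2 difference (x axis) of each of the 40 measured genes (rows, by role) in the 4 comparisons, with 95% intervals from limma; the shaded band marks 0.25 log2 units on each side of 0. Most points lie inside the band, and the widest intervals are those of Unc13b, Pclo and Syt11.

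Among the proteins of the vesicle itself, 6 of 7 genes were measured. Syn1 codes for synapsin, which tethers vesicles to actin and holds them in reserve. Its signal ran from 11.56 through a median of 11.65 to 11.78 on young arrays, from 11.42 through 11.52 to 11.69 on aged unimpaired arrays and from 11.45 through 11.67 to 11.91 on aged impaired arrays. Of the 6 aged unimpaired arrays 5 lay below every young array, while the impaired arrays spread over and beyond the range of the young. The unimpaired minus young difference was -0.15 ± 0.06 (SE; interval -0.28 to -0.02; unadjusted p = 0.0222, adjusted p = 0.371, limma with Benjamini-Hochberg). The impaired minus unimpaired difference was 0.13 ± 0.06 (interval 0.0025 to 0.27; unadjusted p = 0.0462, adjusted p = 0.709, limma with Benjamini-Hochberg), the smallest p of the 40 genes in that comparison. Impaired and young arrays differed by -0.02 ± 0.06.

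Slc17a7 codes for VGLUT1, which loads glutamate into vesicles. It lay between 12.67 and 13.12 (median 12.95) on young arrays, between 12.72 and 12.98 (12.81) on aged unimpaired arrays and between 12.56 and 13.12 (13.00) on aged impaired arrays. The lowest impaired value was that of replicate 7, and the next was 12.90. Impaired minus unimpaired was 0.14 ± 0.08 (adjusted p = 0.757, limma with Benjamini-Hochberg), and 0.20 ± 0.06 without replicate 7 (adjusted p = 0.515, limma with Benjamini-Hochberg).

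The SV2 proteins are vesicle glycoproteins that act before fusion. Sv2a had 8 of 8 impaired arrays above the young median, at 9.59 to 9.89 (median 9.68) against 9.38 to 9.75 (median 9.58) on young arrays, and 9.49 to 9.90 (median 9.64) on unimpaired arrays. Impaired minus young was 0.13 ± 0.07 (unadjusted p = 0.0497, adjusted p = 0.301, limma with Benjamini-Hochberg). Sv2b went the other way between the aged groups, with 12.82 to 13.22 (median 13.07) on impaired and 12.99 to 13.44 (median 13.15) on unimpaired arrays, a difference of -0.16 ± 0.08 (adjusted p = 0.716, limma with Benjamini-Hochberg). A second Sv2b probe set gave -0.02 ± 0.09. Syp, for synaptophysin, a widely used marker of terminals, differed by 0.02 ± 0.04 between aged and young arrays (interval -0.07 to 0.11). Syn2, a second synapsin gene, differed by -0.16 ± 0.09 between unimpaired and young arrays (adjusted p = 0.625, limma with Benjamini-Hochberg), while its other probe sets gave -0.05 ± 0.09 and -0.13 ± 0.09.

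Of the synaptotagmins, 7 of 8 listed genes were measured. Syt3 gave the smallest p of all 40 genes against young in the pooled aged and in the impaired rats. Its signal ran from 8.97 through 9.23 to 9.33 on young arrays, from 9.25 through 9.38 to 9.43 on aged unimpaired arrays and from 9.09 through 9.34 to 9.65 on aged impaired arrays. All 6 unimpaired arrays and 5 of 8 impaired arrays lay above the young median, and 8 of 14 aged arrays were higher than the highest young array. Aged minus young was 0.15 ± 0.06, a 1.11-fold difference (interval 0.03 to 0.28; unadjusted p = 0.0168, adjusted p = 0.190, limma with Benjamini-Hochberg). The aged groups differed by 0.00 ± 0.08 (interval -0.15 to 0.16).

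Syt1, the fast sensor for release in forebrain neurons, differed by -0.01 ± 0.09 between aged and young arrays (interval -0.19 to 0.18) and by 0.04 ± 0.11 between the aged groups. Syt7, a sensor of slower release, differed by -0.19 ± 0.11 between unimpaired and young arrays (adjusted p = 0.646, limma with Benjamini-Hochberg), at a mean signal of 5.82 that lay not far above the minimum. Syt4, Syt5 and Syt13 differed by 0.01 ± 0.04, 0.05 ± 0.07 and -0.02 ± 0.06 between aged and young arrays. Syt13, at a mean signal of 4.49, lay nearer the minimum than Syt7. Syt11 varied widely within groups (within-group SD 0.41), and its impaired minus unimpaired difference of 0.26 had an interval from -0.16 to 0.69.

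All 6 listed SNARE genes were measured. Stx1a codes for syntaxin-1A, the plasma membrane SNARE of neurons. It ran from 9.30 through 9.48 to 9.65 on young arrays, from 9.14 through 9.29 to 9.49 on aged unimpaired arrays and from 9.12 through 9.41 to 9.58 on aged impaired arrays. No aged array exceeded the highest young array, and 5 of 14 lay below the lowest. Unimpaired minus young was -0.18 ± 0.07 (interval -0.33 to -0.03; unadjusted p = 0.0181, adjusted p = 0.349, limma with Benjamini-Hochberg), and aged minus young was -0.13 ± 0.06 (unadjusted p = 0.0320, adjusted p = 0.264, limma with Benjamini-Hochberg).

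Snap25, which codes for the other plasma membrane SNARE of fast release, was the most even of the 40 genes, with a within-group SD of 0.05. It ran from 13.94 through 14.02 to 14.11 on young arrays, from 13.88 through 13.96 to 14.04 on aged unimpaired arrays and from 13.94 through 14.03 to 14.08 on aged impaired arrays. The groups lay on top of each other. Its intervals were the narrowest, from -0.07 to 0.05 for aged minus young and from -0.02 to 0.13 for impaired minus unimpaired. Vamp2, the main vesicle SNARE of forebrain synapses, differed by 0.03 ± 0.05 between aged and young arrays and by 0.06 ± 0.06 between the aged groups. Vamp1, its relative, differed by 0.08 ± 0.05 with age (adjusted p = 0.486, limma with Benjamini-Hochberg). The widely expressed Vamp3 and Stx4 differed by 0.07 ± 0.06 and 0.04 ± 0.06.

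Regulators of the SNAREs include complexins, which clamp and promote fusion, tomosyn (Stxbp5), which competes for syntaxin, and NSF with its SNAP adaptors, which take spent SNARE complexes apart. Nsf, Napa and Napb differed by 0.02 ± 0.04, 0.04 ± 0.06 and 0.03 ± 0.04 between aged and young arrays. Cplx1 differed by 0.03 ± 0.04 and Stxbp5 by 0.00 ± 0.06. Cplx2 differed by -0.11 ± 0.13, with a within-group SD of 0.33. The smallest adjusted p of the 6 regulators in any comparison was 0.559 (limma with Benjamini-Hochberg).

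Rab3 proteins are small GTPases that guide vesicles to the active zone. Rab3a was nearly as even as Snap25 and differed by 0.00 ± 0.03 between aged and young arrays (interval -0.06 to 0.07). Rab3b ran from 7.81 through 7.87 to 7.91 on young arrays, from 7.79 through 7.85 to 7.92 on aged unimpaired arrays and from 7.84 through 7.91 to 8.52 on aged impaired arrays. The spread of the impaired group came from replicates 7 and 8, at 8.52 and 8.12. Impaired minus young was 0.13 ± 0.07 (adjusted p = 0.311, limma with Benjamini-Hochberg), and 0.06 ± 0.04 without replicate 7 (adjusted p = 0.441, limma with Benjamini-Hochberg).

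**Figure D2:**
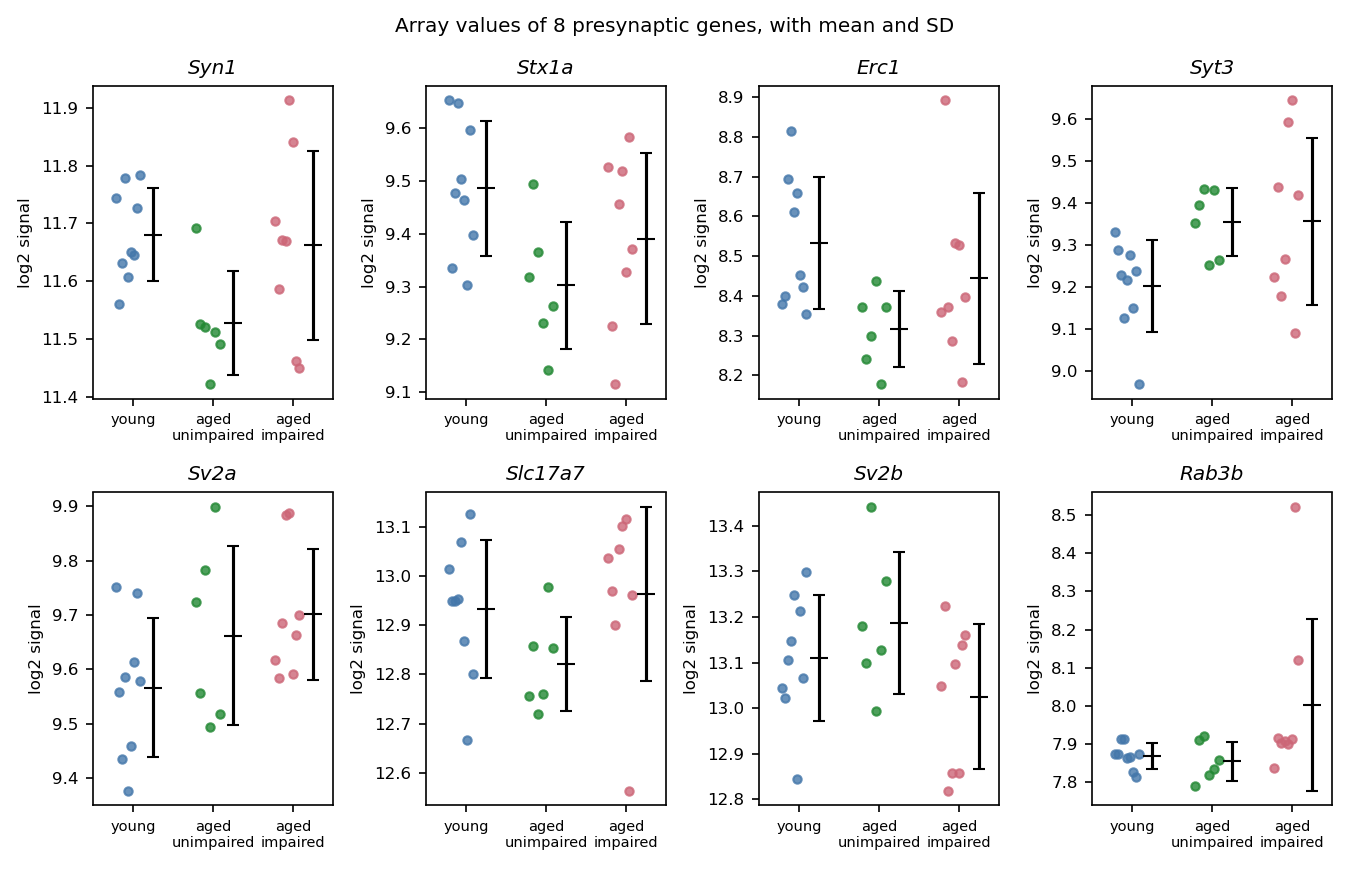
Log2 signal (y axis) of single arrays in the young, aged unimpaired and aged impaired groups (x axis) for 8 release genes, with group means and SD. The groups overlap in every panel, the aged unimpaired arrays of Syn1 and Stx1a lie low, and aged impaired replicate 7 stands alone at the top for Rab3b.

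At the active zone, 7 of 9 genes were measured. Erc1 codes for ELKS, a scaffold that binds RIM. It ran from 8.35 through 8.45 to 8.82 on young arrays, from 8.18 through 8.34 to 8.44 on aged unimpaired arrays and from 8.18 through 8.38 to 8.89 on aged impaired arrays. All 6 unimpaired arrays lay below the young median, and the impaired arrays overlapped both other groups. Unimpaired minus young was -0.22 ± 0.09 (interval -0.40 to -0.03; unadjusted p = 0.0218, adjusted p = 0.367, limma with Benjamini-Hochberg).

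Rims2 codes for a RIM protein, which links Rab3 to priming factors and calcium channels, and had the most positive difference of the 40 genes with age over all 23 arrays. Without impaired replicate 7 the difference was 0.22 ± 0.11 for Rims2 and 0.25 ± 0.12 for Pclo. Over all arrays Rims2 was 5.48 ± 0.23 (SD) on young, 5.66 ± 0.28 on unimpaired and 5.71 ± 0.30 on impaired arrays. Its aged minus young difference was 0.21 ± 0.11 (SE; interval -0.01 to 0.44; adjusted p = 0.359, limma with Benjamini-Hochberg). Rims1 differed by 0.04 ± 0.07. Unc13b, for the vesicle priming factor Munc13-2, had the most negative difference, -0.25 ± 0.16 (interval -0.57 to 0.08), and 13 of 14 aged arrays lay below its young median. Its young arrays spread from 4.39 to 6.25, which contained all aged arrays. The mean signals of Rims2 (5.605) and Unc13b (5.248) over all arrays also lay not far above the minimum. Unc13a, for Munc13-1, the form most needed at glutamate synapses, differed by -0.05 ± 0.13.

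Bassoon and piccolo are very large scaffold proteins of the active zone. Bsn, for bassoon, differed by 0.01 ± 0.04 with age and by -0.08 ± 0.05 between the aged groups (adjusted p = 0.775, limma with Benjamini-Hochberg). Pclo, for piccolo, lay between 6.78 and 7.86 on young, between 7.22 and 8.02 on aged unimpaired and between 5.62 and 7.79 on aged impaired arrays. The value of 5.62 was that of impaired replicate 7, below every other array. The impaired minus unimpaired difference was -0.26 ± 0.26 with that array and -0.01 ± 0.16 without it.

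For the endocytosis genes, all 4 of 4 listed were measured, and their aged minus young differences lay between -0.09 and -0.02. Without aged impaired replicate 7 the differences were 0.00 ± 0.08 for Sh3gl2, 0.00 ± 0.03 for Dnm1, -0.05 ± 0.06 for Synj1 and -0.07 ± 0.05 for Amph, and that of Sh3gl2 was above 0. Dnm1, for dynamin-1, differed by -0.02 ± 0.04 with age (interval -0.09 to 0.06). Between the aged groups it differed by 0.08 ± 0.05, and by 0.11 ± 0.04 without impaired replicate 7 (adjusted p = 0.535, limma with Benjamini-Hochberg). Amph codes for amphiphysin, which recruits dynamin to curved membrane. It lay between 8.30 and 8.64 (median 8.51) on young, between 8.23 and 8.61 (8.40) on unimpaired and between 8.193 and 8.495 (8.381) on impaired arrays. All 8 impaired arrays lay below the young median, and 3 of 14 aged arrays lay below the lowest young array. Impaired minus young was -0.11 ± 0.06 (adjusted p = 0.415, limma with Benjamini-Hochberg). Synj1, for synaptojanin, which strips the clathrin coat, differed by -0.11 ± 0.07 in the same comparison, and by -0.07 ± 0.07 without replicate 7. Sh3gl2, for endophilin, differed by -0.04 ± 0.10, and by 0.02 ± 0.09 without that array.

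The neurexins are presynaptic adhesion proteins that bind partners across the cleft. Nrxn2 differed by 0.02 ± 0.08 and Nrxn3 by -0.06 ± 0.09 between aged and young arrays, and their smallest adjusted p in any comparison was 0.792 (limma with Benjamini-Hochberg).

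**Figure D3:**
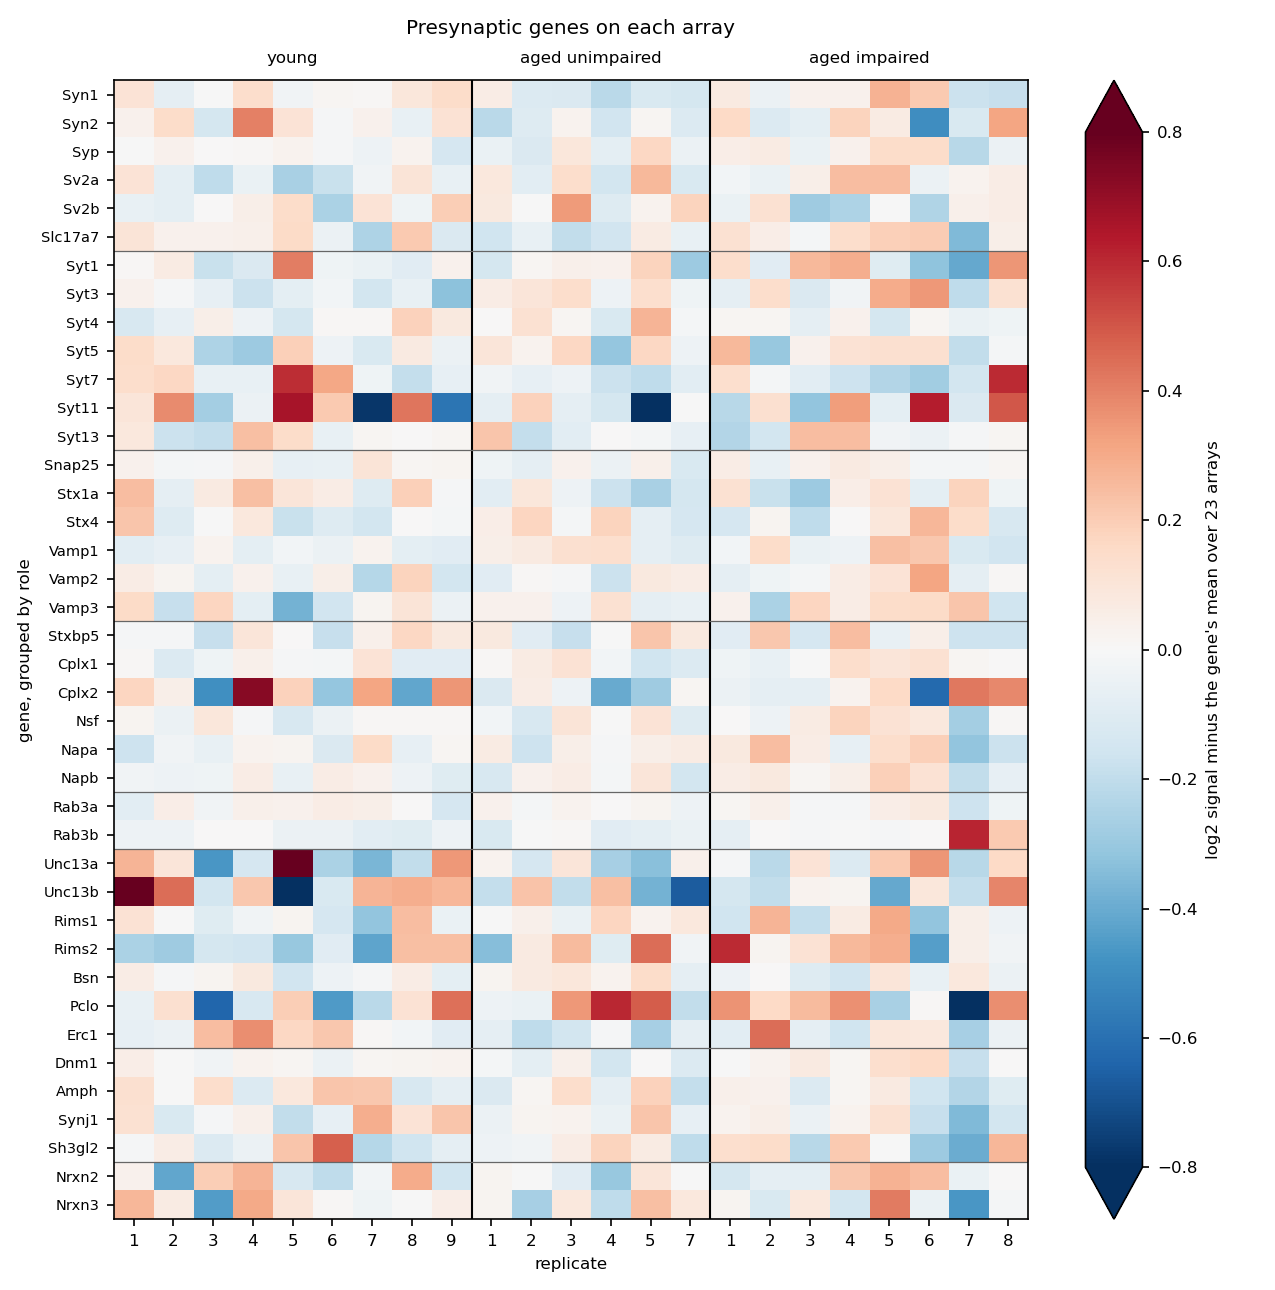
Deviation of each array (columns, by group) from the mean over all arrays for each of the 40 genes (rows, by role), in log2 units. No column block stands apart by group; impaired replicate 7 shows a deep low for Pclo and a high for Rab3b.

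The spread within groups was ordinary. The median within-group SD of the 40 genes was 0.14 log2 units, as over all tested genes. It ranged from 0.05 for Snap25 and 0.06 for Rab3a to 0.39 for Unc13b, 0.41 for Syt11 and 0.51 for Pclo. The median pairwise Pearson correlation of deviations from the group means was 0.09 over the 780 pairs of these genes and 0.09 over pairs of all tested genes. It is a description over 23 arrays that share their scaling.

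Aged impaired replicate 7 was the lowest of all 23 arrays for 13 of the 40 genes and the highest for 2, while each of the other arrays was the lowest for between 0 and 5. The share over all tested genes was not computed, so these counts are not read as particular to release genes. The summed linear signal of replicate 7 over 11 interneuron markers was 10350, below the 11425 to 13132 of the other impaired arrays. Its sum over 10 CA3 and CA2 markers was 4810 against 5147 to 7941. Its sum over 10 endothelial markers was 5486, above the 3910 to 4922 of the other impaired arrays but within the 3911 to 5606 of the young arrays. Its CA1 sum (15869) and its dentate sum (2067) lay within the range of the other impaired arrays. Whether these sums go with its low values among the 40 genes was not tested. Without it, 0 of the 40 genes were called by limma in each comparison. Between the aged groups, 4 genes then had an unadjusted p under 0.05, namely Syn1, Sv2b, Dnm1 and Slc17a7 (10%, beside 7.36% of all tested genes in that fit), with an adjusted p between 0.515 and 0.667 (limma with Benjamini-Hochberg).

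Several probe sets passed the minimum for 16 of the 40 genes, which gave 59 probe sets in all. The probe sets of a gene had the same sign in 9 of 16 genes between aged and young rats, in 7 between impaired and young, in 11 between unimpaired and young and in 10 between the aged groups. The second probe set of Syn1 gave -0.15 ± 0.06 for unimpaired minus young and 0.14 ± 0.07 for impaired minus unimpaired, close to the first. That of Syt3 gave 0.12 ± 0.05 for aged minus young. That of Stx1a gave -0.16 ± 0.09 and that of Erc1 -0.09 ± 0.07 for unimpaired minus young. For aged minus young they gave -0.07 ± 0.07 and -0.02 ± 0.06, where the first probe sets gave -0.13 and -0.14. For impaired minus young the second Stx1a probe set gave 0.00 ± 0.08 and that of Erc1 0.03 ± 0.07.

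Other probe sets departed further from the one used. The second probe set of Slc17a7 gave -0.30 ± 0.12 for unimpaired minus young (unadjusted p = 0.0177) and 0.28 ± 0.12 for impaired minus unimpaired (unadjusted p = 0.0309), larger than the first. A second probe set of Stxbp5 gave 0.13 ± 0.05 for aged minus young, where the first gave 0.00, and that of Vamp1 gave 0.20 ± 0.09. The probe sets of Pclo opposed each other for unimpaired minus young, at 0.26 and -0.20, but the second exceeded the minimum on only 15 arrays. Tested as 12193 separate probe sets, 0 of the 59 were called in any comparison, and 5, 4, 6 and 3 had an unadjusted p under 0.05 (limma). These are 8.47%, 6.78%, 10.2% and 5.08% of the 59, and the shares over all these probe sets were 14.3%, 15.4%, 9.08% and 6.80%. Over all probe sets 315, 317, 62 and 0 were called.

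**Figure D4:**
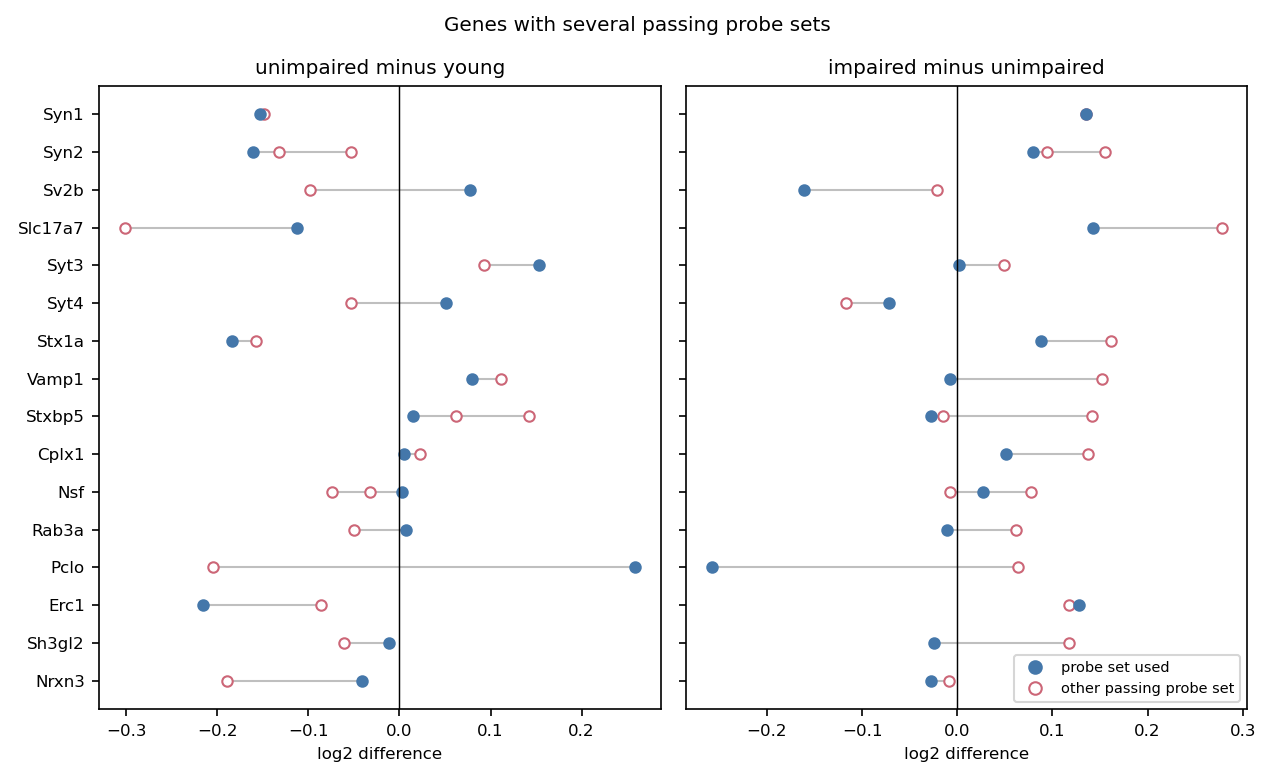
Log2 difference of every probe set that passed the minimum for the genes with more than 1 (rows), for unimpaired minus young (left) and impaired minus unimpaired (right); the filled marker is the probe set used. The markers of Syn1 lie together, and those of Pclo fall on opposite sides of 0 for unimpaired against young.

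Other genes of the pathway gave few calls. Of 144 listed genes of vesicles, C2 domain proteins, SNAREs, the active zone, endocytosis and presynaptic calcium channels, 94 were measured. Between aged and young rats 3 were called higher and 0 lower (3.19%, beside 3.71% of all tested genes). Between impaired and young rats the same 3 were called higher and 0 lower. Between unimpaired and young rats and between the aged groups 0 of 94 were called by limma. At an unadjusted p under 0.05, limma counted 11, 11, 8 and 3 of the 94 in the 4 comparisons. The shares over all tested genes were 15.3%, 16.5%, 9.84% and 6.93%. Genes that were not called went both ways with age. Syt17 differed by -0.22 ± 0.07, Syt12 by -0.68 ± 0.26 and Vat1 by 0.40 ± 0.16 between aged and young arrays. Their adjusted p was 0.0645, 0.191 and 0.222 (limma with Benjamini-Hochberg).

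Vamp8, a SNARE of endosomal and secretory fusion in many cell types, rose 1.2-fold with age, by 0.27 ± 0.06 (adjusted p = 0.0162, limma with Benjamini-Hochberg), from 6.26 to 6.60 on young arrays to 6.53 to 6.86 on unimpaired and 6.42 to 6.93 on impaired arrays. Sytl2, which codes for a Rab27 effector in secretion, rose 1.21-fold, by 0.28 ± 0.07 (adjusted p = 0.0284, limma with Benjamini-Hochberg). Bin1, the amphiphysin found in many tissues, rose 1.11-fold, by 0.15 ± 0.04 (adjusted p = 0.0426, limma with Benjamini-Hochberg). Against young, the impaired rats showed rises of 0.31 ± 0.07, 0.34 ± 0.08 and 0.19 ± 0.05 in these genes. Vamp8 kept its call for aged against young without any 1 array. Sytl2 lost it without aged impaired replicate 5 or 6 or young replicate 3, 4, 5 or 9 (highest adjusted p = 0.0631, limma with Benjamini-Hochberg). Bin1 lost it in 14 of 23 such fits, those without aged impaired replicates 3 to 7, aged unimpaired replicates 1, 4 and 5, and young replicates 2 and 4 to 8 (highest adjusted p = 0.0929, limma with Benjamini-Hochberg). For impaired against young Bin1 lost it without aged impaired replicate 3, 5 or 6. All 3 calls were lost in a fit with the replicate number as a block, at adjusted p between 0.0825 and 0.165 over both comparisons (limma with Benjamini-Hochberg), and Bin1's also in a fit of the compared groups alone (0.051 and 0.0666). Bin1 also missed the threshold for aged against young with equal weights of the aged groups (0.0575) and without the 3 arrays of lowest correlation (0.0736).

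Markers of other cells moved in the same samples. Of 12 microglial markers 8 rose with age, with a summed linear signal of 7419 to 9442 on young, 9540 to 12159 on unimpaired and 9864 to 12502 on impaired arrays. Of 11 astrocyte markers 2 rose (76029 to 87409, 84121 to 91693 and 82073 to 97576 in the same order), of 10 oligodendrocyte markers 1 fell (Mal), and of 10 endothelial markers 2 fell. Over all tested genes 3.71% were called with age and 3.80% between impaired and young rats. In the latter comparison the only oligodendrocyte marker called was Opalin, which was higher. The oligodendrocyte list medians were 0.02 for aged, 0.06 for impaired and -0.09 for unimpaired minus young. None of 11 interneuron, 10 CA3 and CA2 or 5 dentate granule markers passed limma's test with age, with 2, 0 and 1 at an unadjusted p under 0.05. The share over all tested genes with age was 15.3%. The CA1 markers summed to 14617 to 21098 on young, 18106 to 20288 on unimpaired and 15479 to 18914 on impaired arrays, and 1 of 7, Gpr161, was lower in impaired than in young rats (-0.22; adjusted p = 0.0418, limma with Benjamini-Hochberg). Between the aged groups, limma called 0 markers, and an unadjusted p under 0.05 was reached by 4 of 7 CA1 markers, 2 of 5 dentate, 1 of 10 CA3 and CA2, 2 of 11 interneuron, 1 of 11 astrocyte, 2 of 12 microglial, 4 of 10 oligodendrocyte and 1 of 10 endothelial markers. The share over all tested genes in that comparison was 6.93%. The median impaired minus unimpaired difference was -0.20 for the CA1 list, 0.26 for the dentate list, 0.13 for the CA3 and CA2 list and 0.13 for the oligodendrocyte list. Gpr161 differed by -0.32 ± 0.07 (adjusted p = 0.256, limma with Benjamini-Hochberg). The part of these markers in the values above was not tested.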

How the data were processed

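RNA of rat CA1 was hybridised to Affymetrix rat genome arrays. The deposited values are log2 signals. Per the submitters' processing notes, GCRMA was used, a method that corrects background, normalizes and summarizes probes; its version is not given in the sources used here. Of 24 sample columns, 1 (an aged unimpaired array) was blank, and 23 were analysed. No aged unimpaired replicate 6 is named, and young replicate 9, whose column stands among the aged unimpaired, was kept as labelled. Gene symbols came from the platform annotation, which can be old.

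Values were not scaled again. Group means were fitted with limma 3.58.1 (R 4.3.3) over 9076 genes, with Benjamini-Hochberg adjustment within each of 4 comparisons. The aged mean weighted impaired and unimpaired rats by their 8 and 6 arrays. Per comparison, the rule named the 6 members of smallest p, and others were named by role after their values were seen. The members and lists were chosen with earlier results of these data known. The pipeline was tested on simulated data. No batch was given, so none was modelled. Figures used matplotlib 3.10.9.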

Additional observations from a re-analysis of the deposited data

Results flagged for a closer look

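Single arrays stood apart from their group in 13 of the 120 groups of values tested (40 genes in 3 groups, 10.8%). Each is the highest or lowest array of its group, with a gap to the next that is large for the range of the group. For independent values, chance alone marks about 5% of groups. Genes read on the same array are not independent, and the share over all tested genes was not computed. The 10.8% is therefore not read as an excess in release genes. Of the 13, 5 belonged to aged impaired replicate 7, the array of lowest correlation with the others. On it Pclo was 5.62 (next array 7.16), Slc17a7 12.56 (12.90), Dnm1 12.57 (12.75) and Rab3a 12.92 (13.05), all low, whereas Rab3b was 8.52 (8.12), high. Among the other impaired arrays, Syt7 was high at 6.41 on replicate 8 (5.95) and Vamp2 high at 12.32 on replicate 6 (12.12).

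Among aged unimpaired arrays, replicate 5 was low for Syt11 at 8.79 (9.49) and high for Synj1 at 11.86 (11.67), and replicate 2 was low for Napa at 10.94 (11.11). Among young arrays, Syp was low at 11.51 on replicate 9 (11.60), Syt1 high at 10.18 on replicate 5 (9.84) and Nrxn3 low at 8.70 on replicate 3 (9.11).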

How the results depend on the processing

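The count of called release genes was 0 in each of 53 combinations of a comparison with an alternative setting, and in each of 92 combinations of a comparison with 1 of 23 arrays left out. The settings changed the filter, probe sets, normalization, array weights, moderation, threshold, groups fitted and their weights, or added an RNA quality covariate or the replicate block. Leaving out the 3 arrays that correlated least was chosen after seeing the data. The genes named by p kept their direction and their side of the threshold in all 857 values. Their smallest adjusted p over these was 0.0957 between aged and young rats, 0.116 between impaired and young, 0.0769 between unimpaired and young and 0.287 between the aged groups (limma, Benjamini-Hochberg). The median difference of the 40 genes without 1 array lay between -0.01 and 0.02, 0.00 and 0.03, -0.02 and 0.01, and 0.02 and 0.06 log2 units in the same order.

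Counts of all called genes moved. With the replicate number as a block they were 159, 165, 31 and 1; same-numbered arrays did not deviate together (r from -0.27 to 0.12 over 20 pairs, 1 over 0.1), so the numbers were not taken to pair the rats. At an adjusted p under 0.1 they were 524, 531 and 135 for the comparisons against young. Array weights gave 149 for unimpaired against young, and the compared groups alone gave 1 for impaired against unimpaired. Without 1 array the counts lay between 224 (young replicate 2) and 407, 228 (aged impaired replicate 6) and 439, and 35 (aged unimpaired replicate 4) and 86, and stayed at 0 for impaired against unimpaired. The widest intervals for aged minus young were those of Pclo, Syt11 and Unc13b.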
